A study of Mus musculus with 4 samples.

Results

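Genes of the skeletal muscle lineage were examined in single cells of a transplanted mouse sarcoma. The list held 9 genes, namely the transcription factors Pax7, Myf5, Myod1, Myog and Mef2c, the acetylcholine receptor subunit Chrna1, and the fibre genes Des, Acta1 and Tnnt3. They were taken by symbol from the 2 deposited gene tables, 1 of malignant and 1 of non-malignant cells, which together list 18220 genes. Of the 9 genes, 8 had a row in at least 1 table and 6 had a row in both. Myog had a row in neither, and Myod1 and Pax7 had a row in the non-malignant table alone. Every listed gene has UMIs (unique molecular identifiers, each standing for 1 captured RNA molecule) in at least 11 cells of its table.

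The tumors were allografts of the genotype KrasLSL-G12D/+;Trp53flox/flox on a 129/SvJae background, dissected from the hind limb. The genotype label does not separate graft from host, and it was the same in all 4 mice. The vehicle group (2 mice) received PBS into the peritoneum. The digoxin group (2 mice) received 2 mg/kg digoxin, a cardiac glycoside that inhibits the sodium pump, by the same route every 24 h, dissolved in DMSO and diluted in PBS; tumors were taken after the fourth dose. DMSO is named for the digoxin solution alone, so drug and solvent cannot be told apart. Neither the mice's ages nor the driver of recombination is given in the sources used here. The mice are called vehicle 1, vehicle 2, digoxin 1 and digoxin 2. The names of the vehicle 2 cells carry a different number, and these cells are assigned by the replicate that the deposited annotation gives.

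Skeletal muscle is built and repaired through an ordered set of regulators. Pax7 marks the resident stem cells of adult muscle, called satellite cells; Myf5 and Myod1, basic helix-loop-helix factors that bind E-boxes in DNA, commit these cells to the lineage; and Myog, with the Mef2 factors, drives their fusion and the expression of contractile genes. The receptor subunit Chrna1 is made by myoblasts and young fibres, and becomes concentrated at the neuromuscular junction. The contractile genes are the end of that sequence: Acta1 is the actin of the skeletal thin filament, Tnnt3 the fast-fibre troponin T, and Des the intermediate filament that ties sarcomeres together. Mef2c and Des are not restricted to skeletal muscle. Mef2c also acts in macrophages, microglia, B cells and endothelium, and Des is abundant in smooth muscle cells and pericytes, the contractile cells that wrap small vessels.

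In the reference annotation (GENCODE on build mm10), Myod1 lies on chromosome 7 from 46376474 to 46379099, Myf5 on chromosome 10 from 107482908 to 107486134 and Pax7 on chromosome 4 from 139737062 to 139833528. Chrna1 lies on chromosome 2 from 73563215 to 73580338, Acta1 on chromosome 8 from 123891769 to 123894751 and Des on chromosome 1 from 75360329 to 75368579. RefSeq start sites (GRCm38.p6) gave a promoter window for 7 of the 9 genes. The 250 bases before the start site are shown for the receptor and for a pair of fibre genes, because much of what follows turns on these 3 genes. Capitals mark every match to CANNTG (the E-box bound by the Myf5 and Myod1 family), TATAAA, a CArG box (bound by serum response factor) or a MEF2 box, on either strand.
Chrna1, chr2:73580339-73580588, minus strand: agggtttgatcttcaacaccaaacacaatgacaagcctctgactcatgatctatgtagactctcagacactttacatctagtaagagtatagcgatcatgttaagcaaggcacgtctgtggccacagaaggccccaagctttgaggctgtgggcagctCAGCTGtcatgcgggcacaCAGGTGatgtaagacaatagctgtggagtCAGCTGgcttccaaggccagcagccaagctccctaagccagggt
Acta1, chr8:123894776-123895025, minus strand: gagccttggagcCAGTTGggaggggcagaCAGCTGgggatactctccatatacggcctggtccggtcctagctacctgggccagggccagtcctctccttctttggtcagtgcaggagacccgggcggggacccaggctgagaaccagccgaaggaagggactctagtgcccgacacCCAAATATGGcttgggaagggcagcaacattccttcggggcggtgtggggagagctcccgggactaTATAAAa
Des, chr1:75360042-75360291, plus strand: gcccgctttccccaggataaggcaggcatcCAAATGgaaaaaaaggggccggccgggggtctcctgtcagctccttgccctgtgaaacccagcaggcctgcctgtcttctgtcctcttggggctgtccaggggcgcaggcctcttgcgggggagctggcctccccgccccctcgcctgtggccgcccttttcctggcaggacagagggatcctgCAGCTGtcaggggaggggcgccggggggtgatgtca
The Chrna1 window held 3 E-boxes, beginning 92, 73 and 44 bases before the start site. The outer pair read CAGCTG and the middle one CACCTG on the opposite strand. The Acta1 window held E-boxes 238 and 221 bases before the start, a CArG box at 73 and TATAAA at 7; the Des window held E-boxes at 220 and 36. CAGCTG was found in 13.0% and CACCTG in 17.2% of all 32851 promoter windows of this length, and both are cases of CANNTG, which 66.2% of windows held. TATAAA was found in 12.4%, a CArG box in 1.47% and a MEF2 box in 0.508%. These matches describe letters in a window, and no binding was measured.

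The tables held 31611 cells, of which 18963 were deposited as malignant and 12648 as non-malignant. The deposited annotation divides the latter into 11 types, from 10363 cells named Macrophage to 30 named Unknown. Malignant cells carried 255961531 to 350781642 UMIs a mouse, with medians of 46799 to 57658 a cell, and non-malignant cells 52417178 to 59626065, with medians of 15837 to 16671. A level below is a mean over cells of CPM, the UMIs of a gene after every cell is scaled to the same total, and an n of 4 means 4 mice. Among 31498 barcodes, 113 occurred in more than 1 library. Scrublet, a doublet caller, marked 1381 cells (4.37%). Vehicle 2 stood apart: of its 2984 non-malignant cells outside the Unknown type, 7 had a UMI of Xist, the transcript that coats the inactive X chromosome of females. Xist was found in 96.8%, 97.9% and 98.4% of macrophages of vehicle 1, digoxin 1 and digoxin 2. The Y-linked gene Ddx3y was at 87.7 CPM in macrophages of vehicle 2 and at 1.86, 1.74 and 2.28 CPM in those mice. Host comparisons of treatment thus hold 1 vehicle mouse that differs in sex-linked transcripts from both digoxin mice.

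**Figure D1:**
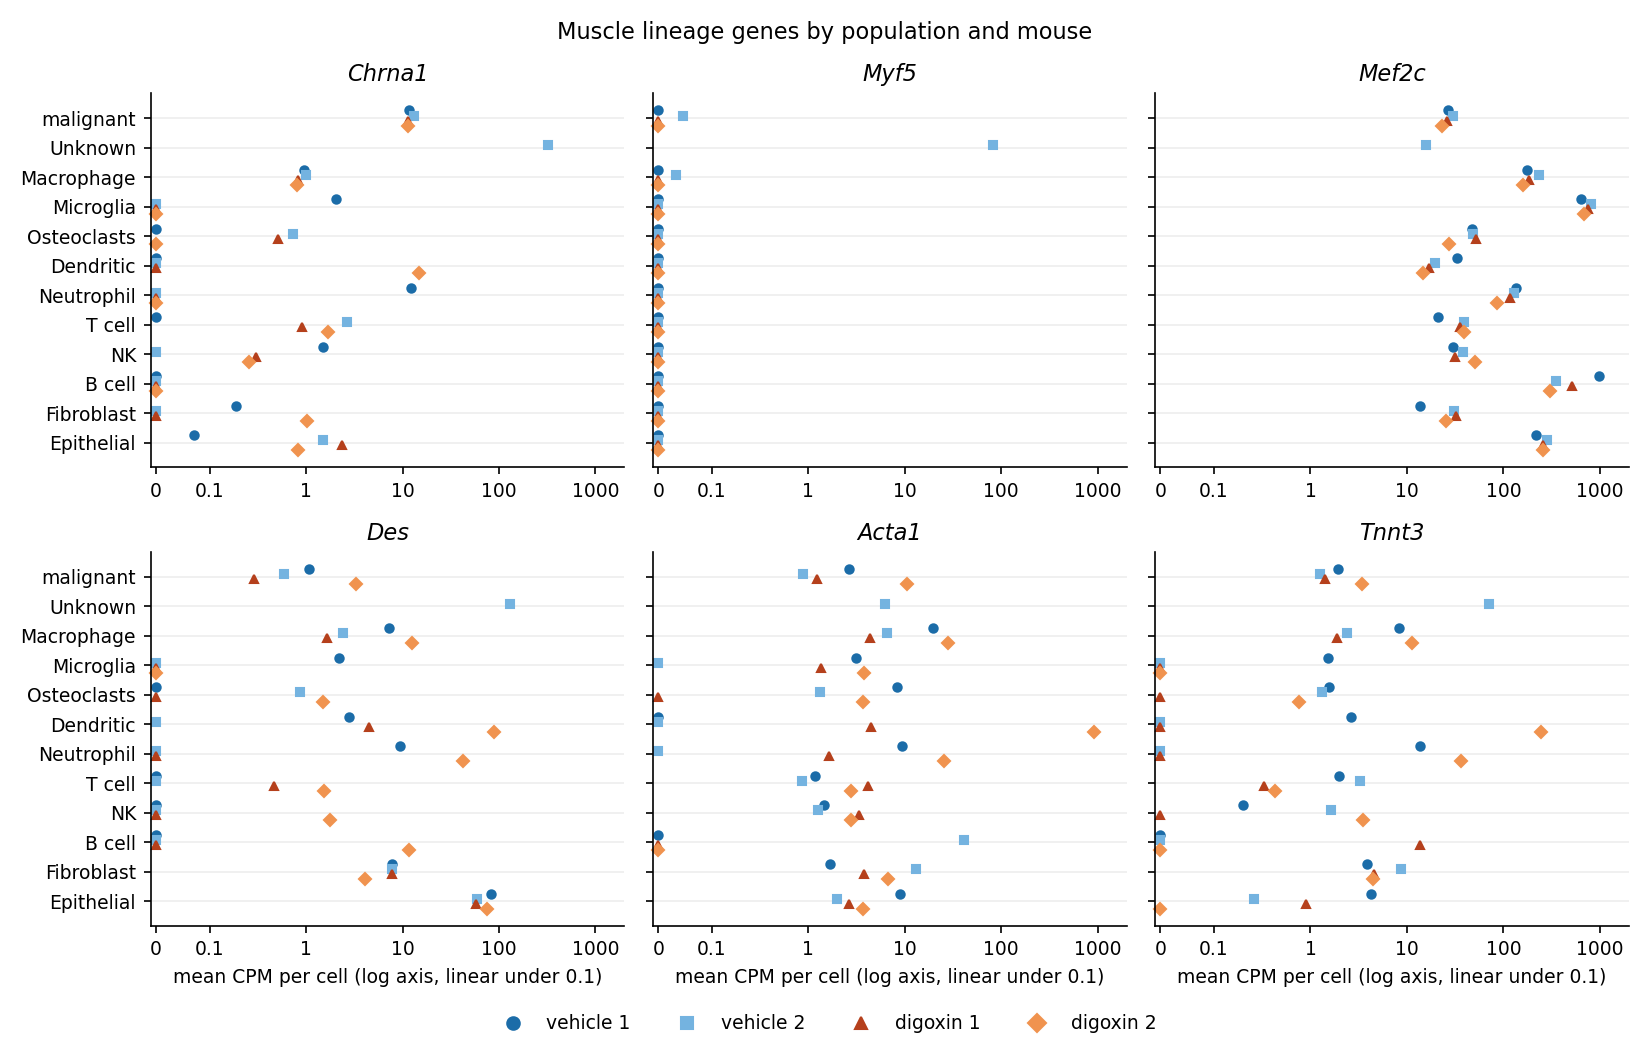
Mean CPM per cell (log axis, linear under 0.1) of the 6 genes present in both tables, in malignant cells and in the 11 deposited types; each symbol is 1 mouse. Chrna1 was at 321 in the Unknown cells and at 11.3 to 13.2 in malignant cells, Myf5 stood near 0 outside the Unknown cells, and Acta1 in macrophages ran from 4.36 to 27.9, while Des in the type named Epithelial ran from 57.6 to 82.5.

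Among non-malignant cells, the early lineage factors marked 1 small set. There, Pax7, Myf5 and Myod1 were found almost wholly in the 30 cells that the authors left as Unknown, all from the vehicle 2 library. Pax7 and Myod1 have no row in the malignant table; Myf5 has one, and its malignant counts are given below. Each of the 30 carried at least 1 of these 3 factors: 5 cells had a UMI of 1 factor, 12 of 2 factors and 13 of all 3. Among the other 12618 non-malignant cells of the 4 mice, Pax7 had a UMI in 2 cells, Myf5 in 1 and Myod1 in 2, and all of those cells were macrophages. The Unknown cells come from 1 library, so their values have no replicate and no test; intervals below are exact and cover counting error only. These cells were annotated from the same transcriptomes, so their levels are a description.

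Pax7 was detected in 22 of the 30 Unknown cells (73.3%, 95% exact binomial interval 54.1 to 87.7), with a median of 1 UMI and a highest value of 11. Its mean level was 33.8 CPM. Myf5 was detected in 24 cells (80%, 61.4 to 92.3), with a median of 4 UMIs, a highest value of 14 and a mean of 83.2 CPM. Stem cell and commitment factors were therefore found in the same small population, at depths of 26374 to 159374 UMIs a cell (median 54783.5).

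Myod1 was detected in 22 cells (73.3%), with a median of 2.5 UMIs, a highest value of 26 and a mean of 110 CPM. Myog, the next factor of the sequence, was not analysed here. Mef2c, in contrast, was sparse here: 14 of 30 cells (46.7%, 28.3 to 65.7), a median of 0 UMIs and a mean of 15.6 CPM, the lowest mean of any population. That mean lay within the ranges over mice of the type named Dendritic (14.8 to 33.0) and of fibroblasts (13.5 to 32.4). Counted over the 8 genes with a row, a cell of this type had a UMI of between 3 and 6 of them, with a median of 4. For comparison, Mef2c had a UMI in 75.4% of all non-malignant cells, at levels given below, and Des in 7.02%. A UMI of a gene is not by itself expression.

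Chrna1 was the one lineage gene seen in all 30 Unknown cells (100%, 88.4 to 100). Its counts ran from 3 to 35 UMIs with a median of 12, and its mean was 321 CPM. Other junction genes were present in the same cells. Chrnd, the delta subunit of the receptor, had UMIs in 28 cells (47.0 CPM) and in 3 of the 2984 other host cells of that library. Rapsn, which clusters the receptor, had UMIs in 25 cells (41.2 CPM) and in 373 of those others, and Chrnb1, the beta subunit, in 26 (55.8 CPM). Receptor genes were thus detected together with the early factors in single cells.

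Of the fibre genes, Des alone was found in more than 1 Unknown cell. It was detected in 17 of the 30 cells (56.7%, 37.4 to 74.5), with a median of 2.5 UMIs, a highest value of 34 and a mean of 130 CPM. Acta1 and Tnnt3 were each detected in 1 cell, the same one (3.33%, 0.0844 to 17.2). That cell had the smallest UMI total of the 30, 26374, and held 56 Tnnt3, 5 Acta1, 116 Mylpf, 152 Ttn, 10 Myod1, 28 Chrna1 and 3 Des UMIs, with 1 of Pax7 and 0 of Myf5. The Tnnt3 mean of 70.8 CPM therefore rests on 1 cell. Ckm, the muscle creatine kinase, and the fast myosins Myh1, Myh2 and Myh4 had 0 UMIs in all 30.

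Other genes of the listed muscle groups bear on what the Unknown cells are. Cdh15, the M-cadherin of satellite cells and myoblasts, was detected in 28 cells (146 CPM) and in 8 of the 2984 other host cells of vehicle 2. Fgfr4 was detected in 24 cells (51.8 CPM) and in 0 of those other cells. Vgll2 was detected in 20 cells (40.0 CPM) and the engulfment receptor Megf10 in 21 (41.6 CPM). Of the 39 listed sarcomere genes, 21 had 0 UMIs in these cells. Tpm1 (918 CPM) and Tpm2 (693 CPM), tropomyosins that are also made outside muscle, and the glycolytic enzyme Eno3 (745 CPM) were high. Ttn was at 364 CPM, but 152 of its 450 UMIs lay in the 1 cell described above, and the mean over the other 29 cells was 177 CPM. Calcr, a gene of quiescent satellite cells, had 0 UMIs. The proliferation gene Mki67 was detected in 24 of the 30 cells (144 CPM).

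The Unknown cells differed from the rest of their library in X-linked and Y-linked transcripts. Xist was detected in all 30 (596 CPM) and in 7 of the 2984 other host cells of vehicle 2 (0.153 CPM). The Y-linked gene Ddx3y was detected in 5 of the 30 (4.0 CPM), against 86.8 CPM in those other host cells and 49.1 CPM in the malignant cells of the same mouse. Trp53, deleted by design in cells that have recombined the floxed allele, was at 22.5 CPM in the Unknown cells and at 7.23 CPM in the malignant cells of vehicle 2. The macrophages and T cells of the same library had 59.4 and 68.3 CPM of Trp53, so the Unknown cells lay between the malignant and these host cells. Macrophage markers ran from 0 (Fcgr1) to 102 CPM (Lyz2, in 80% of cells), with C1qa at 37.1 CPM in 15 cells. Of the listed epithelial genes, Krt18 was at 474 CPM, Krt8 at 18.8, Epcam at 9.10 and Cdh1 at 0.689. Of the listed fibroblast genes, Dcn was at 233 CPM and Col3a1 at 137, while Pdgfra, Lum, Fap and Dpt were at 0 to 2.04. A single cell held 540 UMIs of mast cell markers. Scrublet marked 0 of the 30, and mitochondrial UMIs had a median of 6.10% and a highest value of 9.22%. Where these cells came from was not tested.

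**Figure D2:**
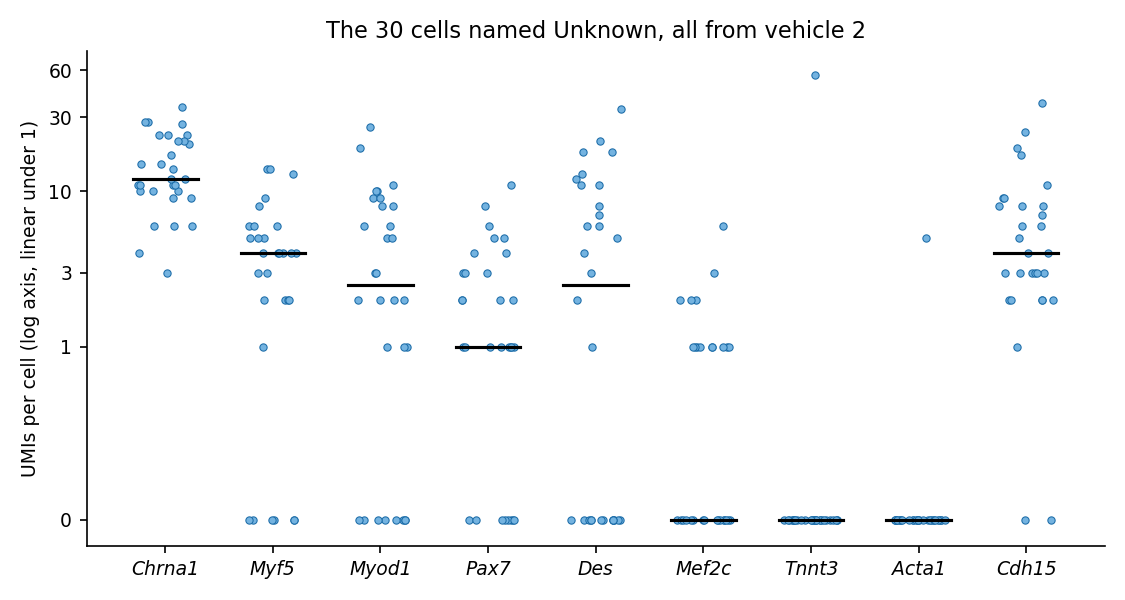
UMIs per cell (log axis, linear under 1) of the 8 detected lineage genes and of Cdh15 in the 30 cells named Unknown; each point is 1 cell, points are spread sideways for view, and bars are medians. Chrna1 has a median of 12 and no cell at 0, while Acta1 and Tnnt3 sit at 0 except in 1 cell.

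Myf5 was rare in malignant cells. Of the 3 early factors, Myf5 alone had a row in their table, with 27 UMIs in 11 of 18963 cells. All 11 cells came from vehicle 2 (0.175% of its 6269 malignant cells, exact interval 0.0876 to 0.314). No cell of vehicle 1, digoxin 1 or digoxin 2 had a Myf5 UMI, which allows shares of up to 0.0666%, 0.0712% and 0.0755%. These limits are on cells with a Myf5 UMI, not on cells that express the gene. A single cell held 15 of the 27 UMIs, together with 8 UMIs of Cdh15, 120 of Xist and 0 of Ddx3y. The same library held the 30 Unknown cells.

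The receptor gene Chrna1, by contrast, was measured in the tumor cells of every mouse. Malignant cells had 11.6 and 13.2 CPM in the vehicle mice and 11.3 and 11.3 CPM in the digoxin mice, a mean of 11.8 ± 0.879 (SD, n = 4). The vehicle mice lay above the digoxin mice by a narrow margin. Chrna1 UMIs were found in 32.0% and 30% of malignant cells of the vehicle mice and in 31.2% and 33.1% of the digoxin mice. Macrophages, which are not known to use the muscle receptor, had 0.809 to 1.00 CPM and Chrna1 UMIs in 1.35% to 1.61% of cells, at median depths of 16070 to 17049 UMIs.

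Depth was made equal by drawing 3000 UMIs from each cell. Chrna1 was then found in 3.33%, 3.51%, 2.83% and 3.24% of malignant cells of vehicle 1, vehicle 2, digoxin 1 and digoxin 2, and in 0.219% to 0.407% of macrophages. The difference between the populations thus remained in every mouse at equal depth. Ordered by mean level, Chrna1 was at 321 CPM in Unknown cells and 11.8 in malignant cells, and no other population had a mean above 3.69. The range over mice of malignant cells (11.3 to 13.2) overlapped those of the 2 populations next in order, Dendritic (0 to 14.8) and Neutrophil (0 to 12.3). The means of these 2, at 3.69 and 3.07, each rested on 1 UMI in 1 cell of 1 mouse. Populations further down also overlapped their neighbours. Most Chrna1 came in low counts, but 52 to 106 malignant cells a mouse had at least 10 UMIs, and the highest count was 75.

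Other genes of the junction were also measured in tumor cells. Among them, Utrn (utrophin, which is also made outside muscle) had a mean of 64.5 CPM over the 4 mice, Chrnb1 7.37, Rapsn 2.18 and Lrp4 1.3. Of the regulators that act with the lineage factors, those with the highest levels within malignant cells were Tcf4 (722 CPM), Tcf12 (139), Tead1 (95.0) and Mef2d (69.1). Other populations are not ranked here, and none of these genes is restricted to muscle. Among factors that restrain the program, Id3, which sequesters helix-loop-helix partners, had 534 CPM, Twist1 206, Zeb1 114 and Hes1 101.

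Malignant cells with Chrna1 were compared with those without it, after thinning to 3000 UMIs so that depth did not set which cells counted as positive. This gave 150, 220, 119 and 129 positive cells in vehicle 1, vehicle 2, digoxin 1 and digoxin 2. Spp1, the secreted matrix protein osteopontin, was higher in the positive cells of each mouse, with log2 ratios of 1.39, 1.66, 1.39 and 1.44. Upp1 and Tagln, an actin-binding protein of contractile cells, were also among the 8 genes whose smallest ratio over the 4 mice was largest. Genes lower in the Chrna1-positive cells included Postn (periostin, from -1.10 in vehicle 1 to -1.80 in digoxin 2), Ptn, Saa3 and Ccl11. Positive cells still had deeper libraries, at 85482 against 56874 median UMIs in vehicle 1, and the part of depth in these ratios was not tested.

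Chrna1 was higher in malignant cells with mitosis transcripts. Malignant cells were split by whether 3000 drawn UMIs included at least 2 from 10 mitosis genes, which 22.7% to 36.7% of cells met. Chrna1 was at 14.8, 20.3, 17.6 and 16.1 CPM in the mitosis-gene-positive cells of vehicle 1, vehicle 2, digoxin 1 and digoxin 2. In the remaining cells it was at 9.94, 11, 8.90 and 8.49 CPM. The positive cells were higher in all 4 mice, by ratios of 1.49 to 1.97. They were also deeper, with medians of 87303 to 99946 against 39905 to 45996 UMIs, and 931 to 1377 cells a mouse lay within 1 UMI of the dividing line. The split is a range of a score and was given no test.

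**Figure D3:**
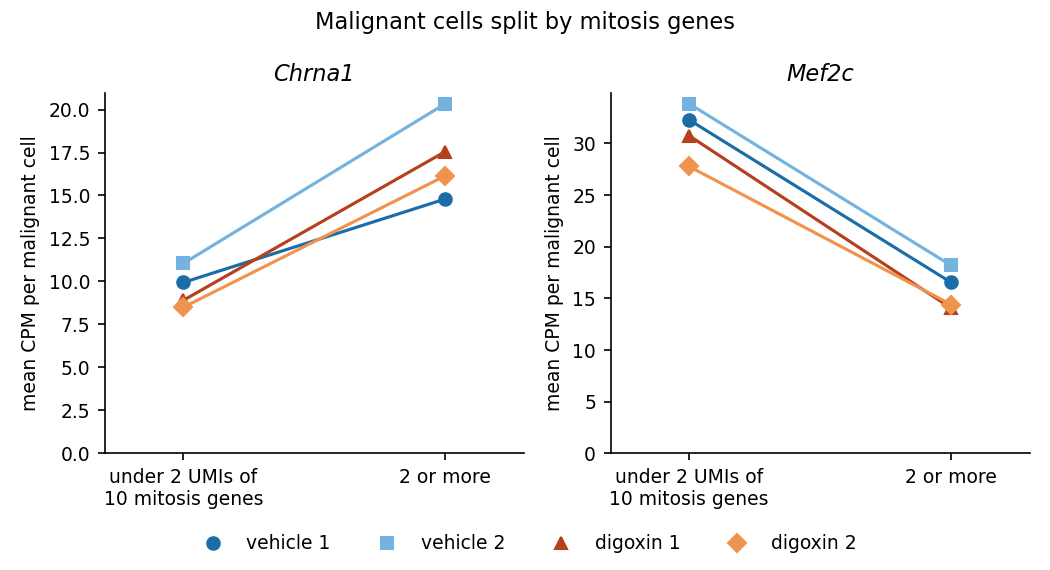
Mean CPM per cell of Chrna1 and Mef2c in malignant cells with under 2 and with 2 or more UMIs of 10 mitosis genes among 3000 drawn UMIs; each line joins the values of 1 mouse. Chrna1 lies higher and Mef2c lower in the cells with mitosis genes in all 4 mice.

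Mef2c showed the reverse. It was at 16.5, 18.2, 14.1 and 14.4 CPM in the mitosis-gene-positive malignant cells of vehicle 1, vehicle 2, digoxin 1 and digoxin 2, and at 32.3, 33.9, 30.8 and 27.8 CPM in the remaining cells. The ratio was 0.457 to 0.537. Without cells marked by Scrublet it was 0.409 to 0.488. After thinning, Mef2c was also found in fewer of the positive cells in each mouse (3.12% to 5.13% against 6.80% to 9.02%). The positive cells were deeper, as given above, and the part of depth in the ratios was not tested. Acta1, Tnnt3 and Des were also lower in the positive cells of vehicle 1, vehicle 2 and digoxin 1 (ratios 0.279 to 0.890). In digoxin 2, which held a fibre-rich malignant cell described below, they were higher (2.79 to 4.89). Over all malignant cells Mef2c stood at 26.9 and 30.3 CPM in the vehicle mice and at 26.0 and 22.9 CPM in the digoxin mice. Both digoxin values lay below both vehicle values, by a gap smaller than the difference between the vehicle mice.

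Mef2c was higher in 8 of the 11 host types than in malignant cells. The type named Microglia had the highest mean, 722 ± 70.4 CPM (SD, n = 4), and its range over mice overlapped that of B cells (537 ± 305). Its markers do not bear out the name: the microglial gene Tmem119 was at 1.43 CPM and P2ry12 at 22.7, while Siglech, a gene of plasmacytoid dendritic cells that microglia also make, was at 2449 and Flt3, a receptor of dendritic cells, at 166. The type named Epithelial followed at 254 ± 25.3 and overlapped macrophages (189 ± 31.8); neutrophils (117 ± 21.5) lay apart from both. Malignant cells (26.5 ± 3.06) ranked 9 of 12, within the ranges of T cells above and fibroblasts below. Within macrophages, cells annotated M2 had 209 to 278 CPM and cells annotated M1 120 to 154, the M2 cells being higher in every mouse.

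Macrophage transcripts moved with Mef2c inside the malignant table. All 8 listed macrophage markers were above 0 in malignant cells of all 4 mice, with summed levels of 423 to 570 CPM against 19615 to 28856 in macrophages. Malignant cells marked by Scrublet had a marker sum of 4169 to 6085 CPM and Mef2c at 53.9 to 76.9 CPM; unmarked ones had 131 to 217 and 21.0 to 26.6. Malignant cells with a thinned Mef2c UMI were higher in the macrophage genes Apoe, Mrc1, C1qa and Csf1r in every mouse, with log2 ratios for Apoe of 1.92 in vehicle 1 and 1.87 in digoxin 2. In the 65 to 195 malignant cells a mouse with 0 UMIs of the macrophage markers, Mef2c was at 39.2, 37.9, 29.4 and 20.7 CPM in vehicle 1, vehicle 2, digoxin 1 and digoxin 2. In the cells with such a UMI it was at 26.3, 30.1, 25.9 and 22.9 CPM, so that the cells without were higher in 3 of 4 mice. The cells without were also shallower, with medians of 23966 to 29035 against 47642 to 59353 UMIs. Split at the median marker level, Mef2c went the other way in all 4 mice, at 16.0 to 22.5 CPM at or under it and 29.7 to 38.1 above it.

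Chrna1 gave clearly the same direction in both splits in digoxin 1 alone. It was at 13.1 to 16.7 CPM in malignant cells at or under the median marker level and at 8.34 to 9.63 above it. In cells with 0 marker UMIs, however, it was at 5.21, 8.50, 17.3 and 11.4 CPM in vehicle 1, vehicle 2, digoxin 1 and digoxin 2, against 11.9, 13.3, 11.2 and 11.3 in the cells with such a UMI. The cells with 0 marker UMIs were thus lower in both vehicle mice, and were higher in digoxin 1 and about level in digoxin 2.

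Few malignant cells had both Chrna1 and Mef2c at equal depth. After thinning to 3000 UMIs, Mef2c was found in 5.33%, 7.73%, 3.36% and 6.98% of Chrna1-positive malignant cells of vehicle 1, vehicle 2, digoxin 1 and digoxin 2. In Chrna1-negative cells the shares were 7.60%, 7.95%, 6.96% and 5.56%. The shares in Chrna1-positive cells were lower in 3 of 4 mice and rest on 4 to 17 cells each.

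The genes of mature fibres were spread thinly over many cell types, and in macrophages their levels followed the mouse. In macrophages, the largest host type, Acta1 was at 19.6 and 6.60 CPM in the vehicle mice and at 4.36 and 27.9 CPM in the digoxin mice. Digoxin 2 was highest, vehicle 1 second, and the treatment groups overlapped. Tnnt3 had 8.22 and 2.38 CPM in macrophages of the vehicle mice and 1.89 and 11.4 CPM in those of the digoxin mice. Des had 7.25 and 2.42 CPM, then 1.65 and 12.4 CPM. The order of the mice was the same for all 3 genes. Other types were mixed. Digoxin 2 and then vehicle 1 were highest in neutrophils for all 3 genes (Acta1 25.7 and 9.35 CPM) and in the type named Microglia for Acta1 (3.8 and 3.09), on 4 cells with an Acta1 UMI in each type. Acta1 was instead highest in digoxin 1 in T cells (4.17) and NK cells (3.35), in vehicle 2 in fibroblasts (13.2), and in vehicle 1 in osteoclasts (8.37) and the type named Epithelial (8.84), on 8 to 16 such cells in each. Des was highest in digoxin 2 in T cells (1.54), NK cells (1.75) and osteoclasts (1.51), on 3 or 4 cells in each.

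Digoxin 2 was also the highest mouse for most genes of the wider fibre lists. Of 39 sarcomere genes measured in macrophages, 31 were highest in digoxin 2, and in 27 of these vehicle 1 came second. Of 19 genes for excitation and energy supply, 18 were highest in digoxin 2, with vehicle 1 second in 15. Over all 16305 genes detected in macrophages, digoxin 2 was highest for 28.1%. In malignant cells, digoxin 2 was highest for 30 of 39, with vehicle 1 second in 22 of these, and for 11 of 18, with vehicle 1 second in 7. Over all 17992 genes detected there digoxin 2 was highest for 26.4%. The malignant counts include 1 digoxin 2 cell with 152 Acta1 UMIs, described below, and were not redone without it. Without that cell the digoxin 2 mean of Tnnt3 was 1.84 CPM, under the 1.94 of vehicle 1. The summed levels were less uneven than those of the 3 members: 731, 656, 694 and 867 CPM for the sarcomere list in macrophages of vehicle 1, vehicle 2, digoxin 1 and digoxin 2. Digoxin 1 lay above vehicle 2 there, in the reverse of their order for Acta1, Tnnt3 and Des. The sarcomere list includes the tropomyosins Tpm1, Tpm2 and Tpm3, and their part in these sums was not separated. Tpm3 alone was at 703 CPM in NK cells. The lists share libraries and are not independent of one another.

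Within macrophages the proportions among the 3 fibre genes varied less than their levels. For every 100 Acta1 UMIs there were 39.3, 34.4, 39.7 and 41.5 Tnnt3 UMIs in vehicle 1, vehicle 2, digoxin 1 and digoxin 2, while Acta1 itself varied from 214 to 1441 UMIs. Des UMIs per 100 of Acta1 were 40.4, 37.8, 38.3 and 42.7. Ckm was less even, at 89.3, 44.7, 65.9 and 80.7. In malignant cells the Tnnt3 proportion was not fixed, at 65.1, 141, 95.3 and 39.5.

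Detection by cell type gives the background for these values. At 3000 UMIs a cell, Acta1 was found in 4.22%, 1.34%, 0.801% and 6.79% of macrophages of vehicle 1, vehicle 2, digoxin 1 and digoxin 2. T cells, which are not known to make skeletal actin, had 0.546%, 0%, 0% and 0.763%, and NK cells 0.694%, 0%, 0.667% and 0%. Each of these lymphoid shares above 0 is 1 cell. The type named Epithelial had 2.50%, 1.02%, 1.20% and 2.33%, fibroblasts 1.28%, 6.45%, 0% and 0%, and osteoclasts 3.57%, 0.658%, 0% and 0%. Macrophages thus had the highest share of these types in vehicle 1 and digoxin 2, but lay below fibroblasts in vehicle 2 and below the type named Epithelial in digoxin 1; those shares rest on few cells. Without thinning the macrophage shares were 20.6%, 8.02%, 4.0% and 31.3%, and those of T cells 0.645% to 3.05% at shallower medians of 7244 to 8231.5 UMIs. M2-annotated macrophages had more Acta1 than M1-annotated ones in all 4 mice, for instance 28.5 against 9.72 CPM in vehicle 1 and 39.2 against 19.2 CPM in digoxin 2. The source of the fibre transcripts in macrophages was not tested.

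**Figure D4:**
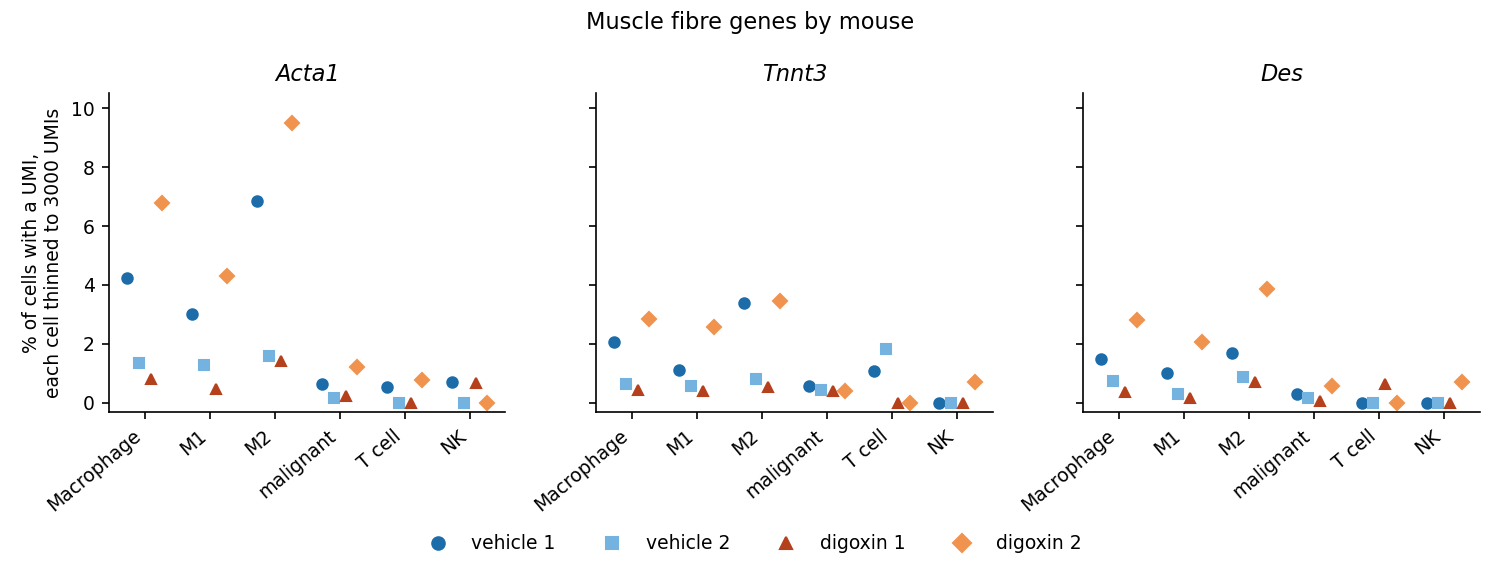
Percent of cells with a UMI of Acta1, Tnnt3 and Des after drawing 3000 UMIs from each cell, in macrophages, their M1 and M2 annotations, malignant cells, T cells and NK cells; each symbol is 1 mouse. Digoxin 2 and then vehicle 1 stand above the other mice in macrophages, and M2 cells stand above M1 cells for Acta1.

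Malignant cells had less of the 3 fibre genes than macrophages, and single cells weighed heavily on the malignant means. Those means lay above the means of osteoclasts, T cells, NK cells and the type named Microglia, with overlapping ranges. This order includes the single cells described next and was not redone without them. Acta1 was at 2.68 and 0.891 CPM in malignant cells of the vehicle mice and at 1.24 and 10.54 CPM in those of the digoxin mice. One malignant cell of digoxin 2, with 6193 UMIs in all, held 152 Acta1, 39 Tnnt3 and 37 Des UMIs. Without it, the digoxin 2 means went from 10.54 to 4.37 CPM for Acta1, from 3.42 to 1.84 for Tnnt3 and from 3.28 to 1.78 for Des. One malignant cell of digoxin 1 held 106 of the 300 Acta1 UMIs of that library. In the type named Dendritic, a single digoxin 2 cell with 62 Acta1 UMIs gave a mean of 916 CPM, which was 0 without it.

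After the Unknown cells, Des was highest in the type named Epithelial. This type had 82.5 and 59.7 CPM of Des in the vehicle mice and 57.6 and 75.4 CPM in the digoxin mice, a mean of 68.8 ± 12.1 (SD, n = 4). Among populations present in all 4 mice it had the highest Des mean, above Dendritic (24.0 ± 43.2), whose range overlapped. The name of this type does not match its markers. The endothelial genes Pecam1 (841 CPM) and Cdh5 (888 CPM) were high, and the epithelial genes Epcam (0.116 CPM) and Cdh1 (0.398 CPM) were near 0.

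Within that type Des was concentrated in few cells. A Des UMI was found in 48 of its 347 cells, and 41 of these had 2 or more, up to 55. The 48 cells carried genes of pericytes and smooth muscle. Rgs5 was at 4049 CPM in Des-positive and 21.9 CPM in Des-negative cells, Pdgfrb at 434 and 2.86, Notch3 at 356 and 1.57, and Acta2 at 1445 and 4.69. In contrast, the endothelial genes Pecam1 (335 against 922 CPM) and Cdh5 (482 against 958) were lower in the Des-positive cells. Mcam, listed with the pericyte genes and also made by endothelium, was not higher there (432 against 454). At least 3 of the 11 listed pericyte and smooth muscle genes with a row were detected in 45 of the 48 Des-positive cells and in 63 of the 299 Des-negative ones. Median depth was similar, at 21572 and 19250 UMIs. Acta1 was at 13.5 and 2.65 CPM, and Mef2c at 222 and 261 CPM, so Des in this type was seen with mural cell genes and without high skeletal actin.

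**Figure D5:**
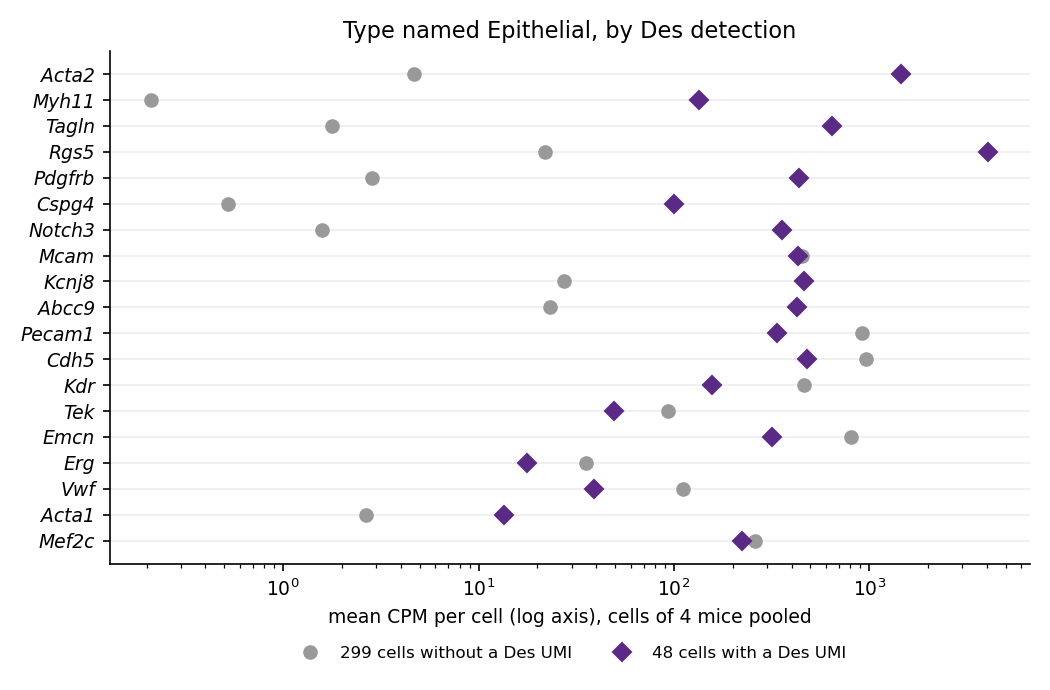
Mean CPM per cell (log axis) of listed pericyte, smooth muscle and endothelial genes, Acta1 and Mef2c in the 48 Des-positive and 299 Des-negative cells of the type named Epithelial, pooled over 4 mice. Rgs5, Acta2, Pdgfrb and Notch3 lie far higher, and Pecam1 and Cdh5 lower, in the Des-positive cells.

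Digoxin and vehicle were compared on log2(mean CPM + 1) with limma, over all genes that passed a filter on low counts. With 2 mice a group, its p-values measure only the spread between these mice. In malignant cells 5 of the 9 genes passed the filter and 0 were called at a Benjamini-Hochberg adjusted p under 0.05, against a background of 0% (0 of 17138 genes called, 585 at an unadjusted p under 0.05). None of the 5 was under 0.05 unadjusted, and edgeR and DESeq2 on summed UMIs also called 0 of them. DESeq2 called 45 and edgeR 0 of all genes there.

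Mef2c came nearest in malignant cells, at -0.22 ± 0.11 on the log2 scale (digoxin minus vehicle, ± SE; adjusted p = 1.00 by limma). At 3000 UMIs, Mef2c was found in 7.52% and 7.94% of malignant cells of the vehicle mice and in 6.86% and 5.61% of the digoxin mice, without overlap, and the exact permutation p of 0.333 is the smallest that 2 against 2 mice can give. Chrna1 had a log2 difference of -0.12 ± 0.10 (limma adjusted p = 1.00). Its shares of cells without thinning, given above, overlapped. Its thinned shares, also given above, did not overlap (the same smallest exact permutation p of 0.333). Nor did those of Tnnt3, at 0.555% and 0.415% for vehicle against 0.404% and 0.402% for digoxin, where vehicle 2 and digoxin 1 were almost level. Those of Acta1 and Des overlapped, and the share of all genes without overlap was not computed. Acta1 had 0.95 ± 0.78, Des 0.37 ± 0.54 and Tnnt3 0.34 ± 0.30 (limma adjusted p = 1.00 for each); all 3 turned negative without digoxin 2, at -0.23, -0.49 and -0.10. Of the 5 genes, Des alone had an SE larger than its difference. The thinned share of Tnnt3 was lower in digoxin mice while its log2 difference was positive.

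Host cells gave the same count. Over all non-malignant cells, 5 of the 9 genes were tested and 0 called (background 0%, 0 of 14879, with 581 under an unadjusted 0.05), and in macrophages 5 were tested and 0 called (background 0%, 0 of 13734, with 555). Chrna1 over all non-malignant cells had a log2 difference of -0.79 ± 0.45 (limma adjusted p = 0.975), which became -0.11 ± 0.11 without the 30 Unknown cells. Its mean in vehicle 2 host cells was 4.19 CPM with those cells and 1.01 without them. In macrophages the log2 differences were -0.01 ± 0.80 for Acta1, 0.10 ± 0.72 for Tnnt3, 0.17 ± 0.75 for Des and -0.23 ± 0.16 for Mef2c (limma adjusted p = 1.00 for each). The fibre genes' errors in macrophages correspond to the spread between the mice of a group described above.

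In the type named Epithelial, 2 of the 9 genes were tested, Des and Mef2c, and 0 called (background 0.467%). Des had a log2 difference of -0.09 ± 0.22 and Mef2c of 0.05 ± 0.15 (limma adjusted p = 0.990 for both). Among the pericyte and smooth muscle genes there, 10 of 12 were tested, 2 rose and 1 fell with limma. Acta2 rose from 102 and 83.9 CPM in the vehicle mice to 264 and 379 CPM in the digoxin mice (log2 1.76 ± 0.19, adjusted p = 0.00371). Myh11, the smooth muscle myosin, had 5.26 and 5.67 CPM, then 36.9 and 28.4 CPM (2.37 ± 0.34, limma adjusted p = 0.0146), and Kcnj8, a potassium channel of pericytes, 123 and 129 CPM, then 33.4 and 59.8 CPM (-1.48 ± 0.25, limma adjusted p = 0.0330).

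The groups of mice did not overlap for these 3 genes. They were named because limma called them on the same values, so this adds no support. The CPM means of Des overlapped. Its shares of cells at 3000 UMIs, 6.25% and 4.08% for vehicle against 7.23% and 15.1% for digoxin, did not (exact permutation p = 0.333, the smallest possible). Those shares rest on 5, 4, 6 and 13 cells of vehicle 1, vehicle 2, digoxin 1 and digoxin 2. At 10000 UMIs Des was found in 9 of 64, 9 of 82, 6 of 64 and 12 of 65 cells, and the groups overlapped. None of the 3 was called by edgeR on summed UMIs (adjusted p = 0.437 for Acta2, 0.216 for Myh11 and 0.998 for Kcnj8). DESeq2 called Myh11 (adjusted p = 0.00191) but neither Acta2 nor Kcnj8 (adjusted p = 0.999 for both). With pseudocount 0.1 or no filter on low genes, limma called 0 genes lower in the type named Epithelial, and so not Kcnj8. The same held without Scrublet-marked cells and without cells over 20% mitochondrial UMIs. Without digoxin 2, limma called none of the 3 (adjusted p = 0.128, 0.290 and 0.0736 for Acta2, Myh11 and Kcnj8), and without digoxin 1 it called Acta2 alone (0.0103). The 48 Des-positive cells in 4 mice limit any statement on mural cells.

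In the remaining types that had at least 20 cells in every mouse, Mef2c and, in fibroblasts, Des were the genes that could be tested. The count called was 0 in NK cells (background 0.0765%), osteoclasts (0.0128%), T cells (0%), fibroblasts (0%) and the type named Microglia (0%). Mef2c differences ran from -0.33 ± 0.28 in osteoclasts to 0.46 ± 0.41 in fibroblasts, with limma adjusted p from 0.844 to 0.999. The signs of these differences were mixed.

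A direct test asked whether digoxin acted differently on the genes in malignant and in non-malignant cells. Of the 9 genes 6 were tested and 0 called (background 0%, 0 of 16091 genes). Over all genes 654 had an unadjusted p under 0.05 by limma, and of the 6 genes 2 did. These were Acta1 (difference of log2 differences 0.81 ± 0.18, unadjusted p = 0.00517 by limma, adjusted p = 0.970) and Des (0.40 ± 0.15, unadjusted p = 0.0423, adjusted p = 0.970). In malignant cells both genes were highest in digoxin 2, the library with the single cell of 152 Acta1 UMIs. Leaving out vehicle 1 gave 2 calls, Chrna1 (1.31, limma adjusted p = 0.0488) and Myf5 (0.83, limma adjusted p = 0.0443), which then compare with vehicle 2 alone, whose library held the Unknown cells. In that setting 0.807% of all genes were called (130 of 16105), against 0% with all 4 mice.

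The other lists fared alike in malignant cells. Among 20 tested regulators, 15 inhibitors, 14 satellite cell genes, 34 sarcomere genes, 8 junction genes, 17 genes of excitation and energy supply and 7 of the dystrophin complex, limma called 0 in either direction. The median log2 difference was 0.08 for sarcomere genes, of which 27 of 34 were positive, 0.10 for excitation and energy supply, -0.15 for the inhibitors, of which 1 of 15 was positive, and -0.01 over all genes tested. In macrophages the medians were 0.10 for 31 sarcomere genes and 0.28 for 14 genes of excitation and energy supply, all 14 of them positive, with 0 called in either. Digoxin 2 was the highest mouse for most genes of those lists.

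Genes whose levels ran most like a member across populations were found by correlation of log2(mean CPM + 1), as a description over 12 populations or, for Myod1 and Pax7, 11. Myf5 ran most like Fgfr4 (r = 1.00), Zic1 and Bves, and Pax7 most like Myod1. Outside the Unknown cells, Pax7, Myod1 and Myf5 had population means of at most 0.0117 CPM. Their correlations thus rest on the Unknown cells alone, and any gene confined to those cells would correlate as highly. The Unknown cells held 68 of the 70 Pax7 UMIs, and 130 Myf5 UMIs against 27 in malignant cells and 1 in macrophages. Chrna1 ran most like Scn9a (r = 0.957), Vgll2 and Rgs20. Acta1 ran with Tmem131 (r = 0.934) and the fast-fibre gene Myoz1, and Tnnt3 with the fast myosin light chain Myl1 (r = 0.894). Mef2c ran with Nsf (r = 0.927) and Rasgrp2, and Des with Hotairm1 (r = 0.934). The points share libraries, and small types with 1 fibre-rich cell weigh on the fibre genes.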

How the data were processed

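RNA of 4 tumors (2 vehicle, 2 digoxin) was profiled with the 10x Chromium 3' V3 kit, per the labels' protocols. Cell Ranger 3.0.2, Seurat 3.0.2 and the build mm10 are named in the submitters' processing notes; how cells were filtered and typed is not given in the sources used here. The deposited values are on a natural log scale: the natural log of 1 plus UMIs per 10000 of the cell. With the deposited count of UMIs per cell (nCount), 100% of values came back as whole UMIs (tolerance 0.01), and recovered totals equalled the deposited ones in all cells. Types are the authors' own. 0 columns belonged to no sample.

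The genes and lists were chosen with earlier results of these data known. All 9 genes are named; of other lists, those called (up to 6 a list and comparison) and the 4 highest in malignant cells; the 3 genes most correlated with each member had at least 5 CPM in some population. Other genes, among them the genes named for the Unknown and Des-positive cells, were named after their values were seen.

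CPM per cell was averaged per mouse and population, and limma 3.58.1 (R 4.3.3; pseudocount 1, trend, Benjamini-Hochberg over genes kept by edgeR's filterByExpr) compared the groups without a replicate term, in types with at least 20 cells in every mouse; the malignant against non-malignant contrast had the mouse as a block. The fit was tested on simulated data. edgeR 4.0.16 (quasi-likelihood) and DESeq2 1.42.0 on summed UMIs, other pseudocounts and filters, thinning depths, doublet (Scrublet in scanpy 1.11.5) and mitochondrial filters, and leaving out each mouse were alternatives. Doublets were kept in the main values. Shares were compared by two-sided exact permutation over mice. Intervals are exact, at 95%; UMIs are molecules, and intervals and limits on 0 (3 counts) cover counting error only. Motif positions count from the base before the start site. The labels name separate mice, so p-values measure the spread between mice.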

Additional observations from a re-analysis of the deposited data

How the results depend on the processing

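The number of lineage genes called as different between digoxin and vehicle was 0 in malignant cells, non-malignant cells and each type under every alternative run; for the difference between malignant and non-malignant cells it was 0 to 2 when 1 mouse was left out, the 2 being those without vehicle replicate 1, and 0 otherwise. Counts over all genes moved more. In malignant cells they were 0 with limma, 45 with DESeq2 and 0 to 5 with 1 mouse left out; in non-malignant cells 0, 30 and 0 to 27; for the difference between them 0, 24 and 0 to 130. Summed over types, limma gave 56, pseudocount 0.1 24, no filter on low genes 12, edgeR 17, removal of Scrublet-marked cells 32, removal of cells over 20% mitochondrial UMIs 33, and leaving out a mouse 35 to 1348. The causes were not tested. Where 1 mouse is left out, its group has a single mouse, which limma assumes to vary like the other group.

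Log2 differences were followed for chosen genes in malignant cells, macrophages, the type named Epithelial and the malignant against non-malignant contrast. Of these, 156 kept their sign and side of the threshold and 17 reversed, none of them called before or after. For that contrast Acta1 and Des alone were followed, so the calls of Chrna1 and Myf5 without vehicle replicate 1 lie outside these counts. With 1 mouse left out, malignant values ran up to 2.13 (Acta1), 0.78 (Tnnt3) and 1.24 (Des), macrophage values from -1.22 (Acta1) and up to 1.15 (Tnnt3) and 1.34 (Des), and Epithelial Des from -0.32. Without digoxin replicate 2, the malignant values became -0.23 (Acta1), -0.10 (Tnnt3) and -0.49 (Des), and in macrophages Tnnt3 became -0.95 and Des -1.0. Without vehicle replicate 2, macrophage Tnnt3 became -0.62 and Des -0.47. Macrophage Acta1, at -0.01, became 0.055 with pseudocount 5, 0.23 with edgeR, 0.24 with DESeq2, 1.21 without digoxin replicate 1 and 0.71 without vehicle replicate 1. In the type named Epithelial, Des became 0.67 with edgeR, 0.68 with DESeq2, 0.10 without digoxin replicate 1 and 0.14 without vehicle replicate 1, and Mef2c -0.12 without vehicle replicate 1.

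Of the share differences, 61 kept their sign and 9 reversed. Not thinned, Chrna1 became 1.16 percentage points in malignant cells and 0.0402 in macrophages. Without digoxin replicate 2, malignant Acta1 became -0.185 and Des -0.145, and macrophage Acta1 -1.98, Tnnt3 -0.923 and Des -0.747. Without vehicle replicate 2, macrophage Acta1 became -0.425 and Tnnt3 -0.427. The highest values with a mouse left out were 0.809 (malignant Acta1), 0.337 (malignant Des), 4.0 (macrophage Acta1), 1.49 (Tnnt3) and 1.70 (Des). Levels taken as shares of summed UMIs weigh deep cells more. They gave 14.8 CPM for malignant Chrna1, 20.9 for malignant Mef2c and 53.0 for Epithelial Des. The other 65 levels moved by less than the spread between mice (SD), but that spread can itself come from 1 cell. The Dendritic Acta1 mean of 230 CPM had an SD of 457, and its 916 CPM in digoxin 2 became 0 without 1 cell. A move smaller than the spread therefore does not show that such a level is stable. Thinned to 10000 UMIs, Mef2c was 6.62 points rarer in malignant cells with Chrna1 (difference -6.62), and the Pecam1 difference by Des in the Epithelial type was -50.5.

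Same-numbered mice are separate animals, and the numbers give 2 pairs only. A replicate block called 0 of the lineage genes, and over all genes 0 in malignant cells, 2 in non-malignant cells and 168 over types. Deviations of same-numbered mice correlated at -0.468 in malignant cells (9441 genes), and a replicate block with crossed numbers, chosen after seeing the data, called 0 of 17138 genes there. Without the mouse block, the difference between malignant and non-malignant cells called 0. Planned tests of cycling against other malignant cells, and of digoxin within them, were not run because no cell cycle call was used here. Depth limits the fibre genes: at 3000 UMIs a cell most malignant shares lie under 1%.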
